A study of Homo sapiens with 4 samples.

Results

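CD74 and CD1D are antigen presentation genes, each printed as 2 spots on a 2-colour oligonucleotide array of cancer-related genes, and they were taken from the array by the gene name given to each spot. They are 2 of 1856 gene probes and hold 4 of 3786 gene spots on each array. The 5 probes whose names start with HLA-, with 10 spots, were measured beside them. The cells were MDA-MB-231, an established human triple-negative breast adenocarcinoma line. Untreated cells grew in RPMI medium with fetal bovine serum, and the rhLRG1 group received the same medium plus recombinant human LRG1, a secreted leucine-rich glycoprotein, at 100 ng/mL for 24 h. Replicates 2 and 3 were labelled as biological replicates, and each array carried the untreated and the rhLRG1 sample of the same number. On both arrays the untreated RNA carried ALEXA 555 and the rhLRG1 RNA carried ALEXA 647, so treatment and dye cannot be told apart. The pair was selected on the ratios and Z ratios that these same arrays gave them, so those values are a description and carry no p-value.

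CD74, the invariant chain, binds newly made MHC class II molecules in the endoplasmic reticulum, blocks their peptide groove and directs them to endosomes, where cathepsins degrade it. At the cell surface CD74 also binds the cytokine MIF and signals together with CD44 or chemokine receptors. CD1D is a non-classical MHC class I-like molecule that pairs with beta-2-microglobulin and presents lipid antigens to natural killer T cells. Both are best known from professional antigen-presenting cells, and epithelial and tumour cells can also make them.

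Each spot has a foreground intensity and the intensity of the slide around it, its local background. The median gene spot stood 11.8 and 8.71 times above its local background in the untreated samples (replicates 2 and 3) and 5.69 and 4.57 times in the rhLRG1 samples. The median background was 42.9 and 48.9 in the untreated channel and 70.2 and 70.4 in the rhLRG1 channel. On replicate 3 an IFNG spot read 674 against a local background of 5345 in the untreated channel, and the spot beside it, named RAI3 (GPRC5A), read 296 against 513. These 2 spots entered the normexp background correction, a model that keeps every corrected value above 0, and the spread of log2 ratios over all probes was 0.12 on replicate 3 against 0.21 on replicate 2. Without them, a choice made after seeing the data, the spread on replicate 3 was 0.21. Values without these 2 spots are therefore given beside the results of CD74 and CD1D and where they change the call of another named gene.

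The CD74 spots were barely brighter than the slide in all 4 samples. In untreated replicate 2 they read 47.3 and 48.2 over backgrounds of 42.4 and 42.8. In untreated replicate 3 they read 54.0 and 52.1 over 48.9 and 47.1. Under rhLRG1 the foregrounds were 73.9 and 75.5 over 69.2 and 70.0 in replicate 2, and 73.9 and 75.7 over 69.7 and 72.0 in replicate 3. The foreground was thus higher under rhLRG1 at both spots of both arrays, and so was the background.

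**Figure D1:**
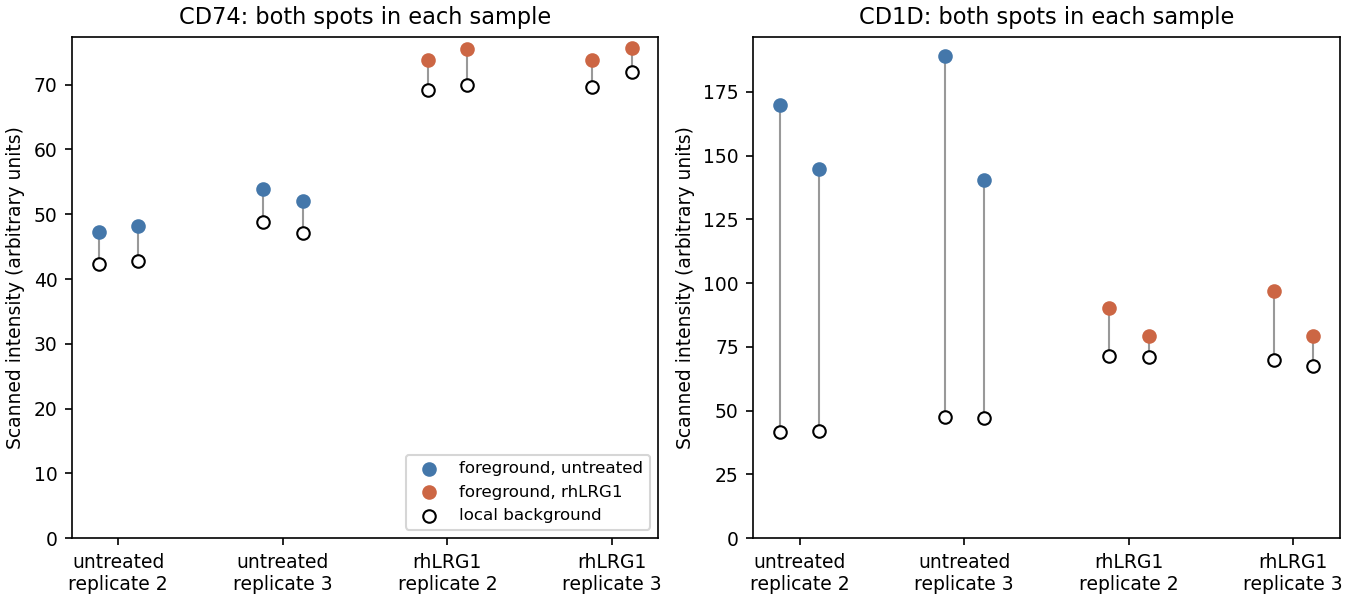
Foreground (filled) and local background (open) intensity, in arbitrary units, of the 2 spots of CD74 (left) and CD1D (right) in each of the 4 samples, with a line joining the values of each spot. For CD74 the gap was about the same in every sample, from 3.70 to 5.52, while for CD1D it was 93.5 to 142 in the untreated samples and 8.29 to 27.1 under rhLRG1.

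After subtraction of the local background, the CD74 spots held 4.97 and 5.40 units in untreated replicate 2 and 5.10 and 4.99 in untreated replicate 3. The rhLRG1 samples held 4.66 and 5.52 units in replicate 2 and 4.16 and 3.70 in replicate 3. The groups overlapped, and the lowest values were those of rhLRG1 replicate 3. Of the 8 CD74 readings, 2 did not exceed the background by 2 of its standard deviations, spot 1 of rhLRG1 replicate 2 at 1.96 and spot 2 of rhLRG1 replicate 3 at 1.73. Ranked from the lowest by foreground over background, the CD74 spots stood at 8, 12, 12 and 13 of 3786 gene spots in the untreated samples and at 18 to 29 under rhLRG1. None of the 54 control-oligonucleotide spots read lower than a CD74 spot in any sample. Such ranks describe detection on the slide only, since oligonucleotides differ in how well they hybridise and brightness does not order transcripts.

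The ratio of CD74 depended on what was done with this small signal. The foreground alone gave log2 ratios of rhLRG1 over untreated of 0.64 and 0.65 on replicate 2 and 0.45 and 0.54 on replicate 3. Plain subtraction with no normalization gave −0.094 and 0.033 on replicate 2 and −0.29 and −0.43 on replicate 3. With loess normalization after it, the CD74 probe had 1.56 and 0.80. The deposited net intensities were 4.97, 5.40, 5.10 and 4.99 for the untreated spots and 5.28, 6.42, 3.24 and 2.79 for the rhLRG1 spots, which is 1.06 and 1.19 times the untreated value on replicate 2 and 0.636 and 0.559 times on replicate 3. With the net intensities the arrays differed in direction. With normexp correction and loess normalization the log2 ratio of the CD74 probe was 0.27 on replicate 2 and 0.032 on replicate 3, a mean of 0.15 ± 0.17 (SD, n = 2 arrays). Both CD74 values were above 0, as were those of 35.7% of all probes, and the mean was smaller than the spread between the arrays. Without the IFNG and RAI3 spots the CD74 ratios were 0.27 and 0.17, a mean of 0.22, which in this setting was larger than the spread between the arrays.

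The study's methods call a gene by its Z ratio. Log intensities are standardised within each sample, the untreated mean is subtracted from the rhLRG1 mean, and the difference is divided by its standard deviation over all probes, with a call beyond 1.5 in size. Over all 1856 probes, 125 were called higher, 6.73% of them, and 123 lower, 6.63%. CD74 had a Z ratio of 3.24, the 4th highest on the array, although its mean log2 ratio ranked only 243rd from the top. It stayed above 1.5 without replicate 2 (1.54), without replicate 3 (3.84) and without the IFNG and RAI3 spots (4.0). From the deposited net intensities it was −1.02 and not called, and from channels that had been loess-normalized it was 1.04 and not called. The direction of CD74 turned with the net intensities and, in its mean log2 ratio, also with no normalization (−0.021), where the median of all probes was −0.31.

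CD74 shared this Z ratio with the other probes at the slide's floor. With it, 19 probes stayed below 1.25 times their local background in all 4 samples, a limit set after seeing the data. All 19 were called higher, with Z ratios from 2.84 to 3.26, against 6.73% of all probes. Without replicate 2 their Z ratios ran from 1.42 to 1.59, on either side of the limit of 1.5. They ran from 3.30 to 3.91 without replicate 3, and from 3.52 to 4.06 without the IFNG and RAI3 spots. Their log2 ratios ran from 0.14 to 0.33 on replicate 2 and from 0.013 to 0.054 on replicate 3, and CD74 was the 12th lowest of the 19 on each array. From the net intensities, 5 of the 19 were called higher, 2 lower and 12 not at all, and from loess-normalized channels none was called. CD74 belongs to the 19, so its place within their ranges follows from the choice.

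**Figure D2:**
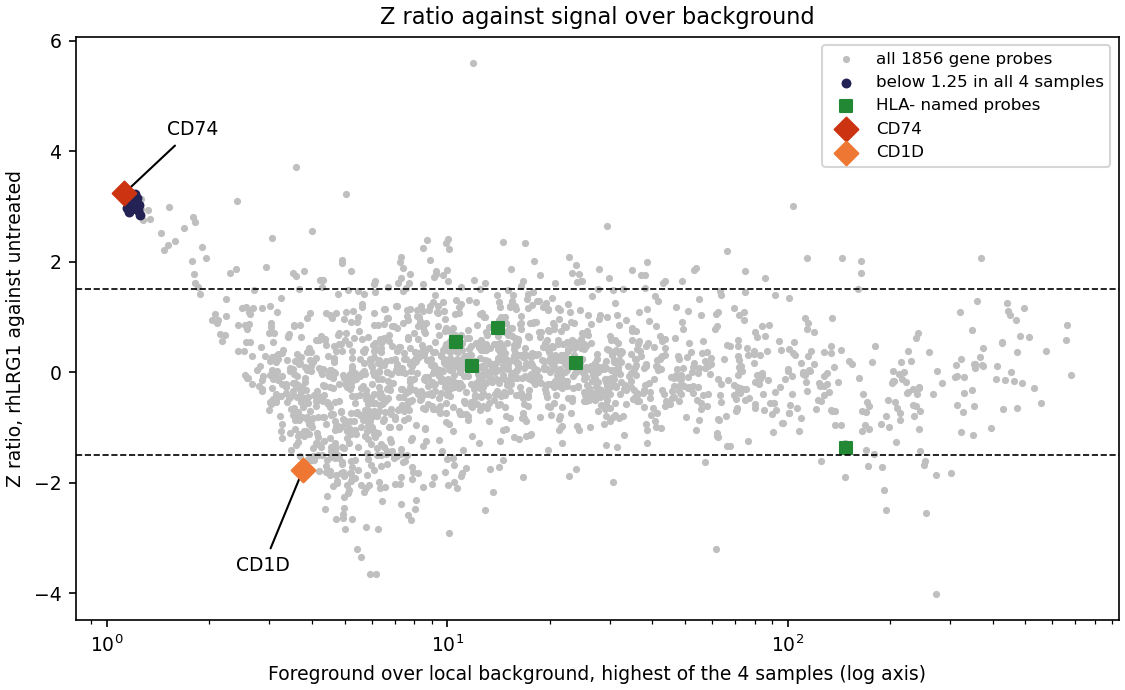
Z ratio of each of the 1856 gene probes (vertical axis, dashed lines at 1.5 and −1.5) against its foreground over local background, taking the highest of the 4 samples (log axis). CD74 (red diamond, Z ratio 3.24) lies among the 19 floor probes (dark blue), all of them above 2.84, CD1D (orange diamond) lies at −1.76 on the lower left edge, and the HLA- probes (green squares) lie between −1.38 and 0.805.

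By the distance over the 4 loess-normalized log2 values, each gene centred on its own mean, the genes most like CD74 were PDCD6 (distance 0.016), APC (0.018) and CUX1 (0.020). Their rhLRG1 foregrounds were also close to the slide, at 1.04 to 1.07 times the background. The mean log2 ratio was 0.14 for PDCD6, for APC and for CUX1, beside 0.15 for CD74. That ratio comes from the same values that set the distance, so its likeness to CD74 follows from the choice. The distances were not recomputed without the IFNG and RAI3 spots.

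CD1D differed from CD74 in that its untreated foreground stood further above the slide, at 3.77 and 3.49 times the background (replicates 2 and 3). That was still below the median gene spot, at 11.8 and 8.71 times. Under rhLRG1 the CD1D foreground was 1.19 and 1.28 times the background. The untreated spots read 170 and 145 over 41.6 and 42.1 in replicate 2, and 189 and 141 over 47.4 and 47.1 in replicate 3. Under rhLRG1 they read 90.4 and 79.4 over 71.3 and 71.1 in replicate 2, and 97.0 and 79.1 over 69.9 and 67.4 in replicate 3. All 4 untreated foregrounds lay above all 4 rhLRG1 foregrounds, although the rhLRG1 background was the higher. These values are not normalized, and the 4 in each group are 2 spots on each of 2 arrays.

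After subtraction the CD1D spots held 128 and 103 units in untreated replicate 2 and 142 and 93.5 in untreated replicate 3. The rhLRG1 spots held 19.1 and 8.29 units in replicate 2 and 27.1 and 11.7 in replicate 3. The groups did not overlap, but these values are not normalized, and the share of all probes without overlap was not computed. In the normexp values with no normalization, 91.6% of all probes had a mean log2 ratio below 0. Every CD1D reading was above background by more than 2 of its standard deviations, the lowest being 4.65. Spot 1 was brighter than spot 2 in all 4 samples. Among 3786 gene spots, the CD1D spots ranked 288 to 734 from the lowest in the untreated samples and 59 to 413 under rhLRG1. Under rhLRG1, between 1 and 35 of the 54 control-oligonucleotide spots read lower than a CD1D spot after subtraction, and in the untreated samples between 16 and 40. The median control spot held 115 and 113 units in untreated replicates 2 and 3, and 27.0 and 21.0 under rhLRG1. The untreated CD1D spots thus lay on either side of the median control spot.

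The net intensity deposited for CD1D under rhLRG1 was 68.2, 28.0, 89.1 and 43.2, which is 3.29 to 3.69 times the subtracted value, while the untreated net intensity equalled the subtracted value. For CD74 the same factor was 1.13 and 1.16 on replicate 2 and 0.779 and 0.754 on replicate 3. The correction applied to the rhLRG1 channel before deposit therefore moved CD1D towards its untreated value and moved CD74 in opposite directions on the 2 arrays.

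All 5 ways of forming the ratio gave CD1D a value below 0 at every spot. Some of these ways had no normalization, and with normexp and no normalization 91.6% of all probes had a mean below 0. The log2 ratio of the foregrounds was −0.91, −0.87, −0.97 and −0.83, that after plain subtraction with no normalization −2.75, −3.63, −2.39 and −3.00, and that of the net intensities −0.91, −1.88, −0.67 and −1.11. With normexp and loess it was −0.50 and −0.66 on replicate 2 and −0.096 and −0.078 on replicate 3. The CD1D probe had a log2 ratio of −0.58 on replicate 2 and −0.087 on replicate 3, a mean of −0.33 ± 0.35 (SD, n = 2 arrays), again no larger than the spread between arrays. Without the IFNG and RAI3 spots it was −0.58 and −0.35, a mean of −0.46, which in this setting was larger in size than the spread between the arrays. The direction of CD1D was thus shared by both arrays, which 39.6% of all probes had in the same direction and 75.3% in either direction, while its size changed with the background treatment, from a mean of −0.33 with normexp to −0.99 with plain subtraction, both followed by loess, and −1.14 with the net intensities as deposited.

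**Figure D3:**
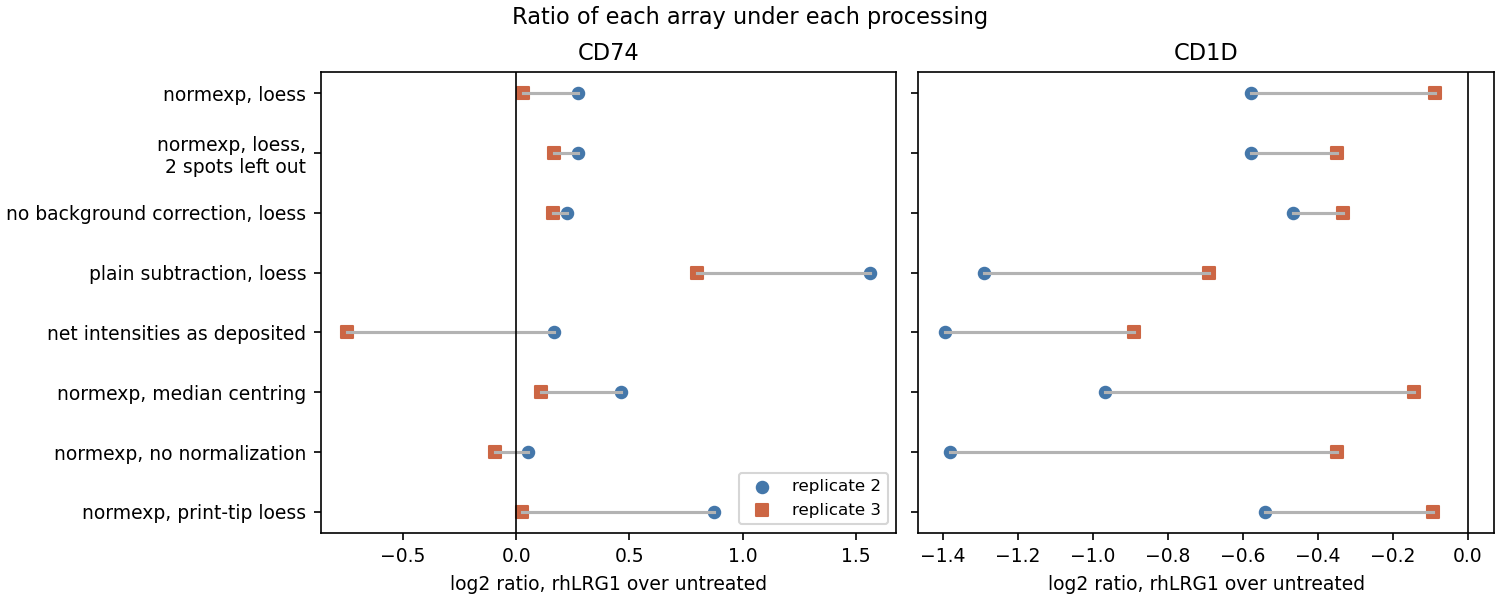
Log2 ratio of rhLRG1 over untreated for CD74 (left) and CD1D (right) on replicate 2 (circles) and replicate 3 (squares) under 8 ways of processing, with a line joining the arrays. CD1D is below 0 in all of them, with means from −0.32 to −1.14, while CD74 has its arrays on either side of 0 with the net intensities and with no normalization. With no normalization 91.6% of all probes had a mean below 0.

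The Z ratio of CD1D was −1.76, called lower, the 80th lowest of 1856 probes, and its mean log2 ratio was the 34th lowest. It was −0.515 without replicate 2 and no longer called, and −2.31 without replicate 3. With the IFNG and RAI3 spots left out, the Z ratio was −2.00 on both arrays and −1.55 without replicate 2, so the call then held on either array. It was −4.11 from the net intensities, −2.01 from loess-normalized channels and −1.40 with no background correction, the last of these not called.

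With the 1856 probes ordered by brightness and divided into 10 bins, both belonged to the dimmest bin, in which 55 of 185 probes were called, 29.7%, with 43 higher and 12 lower. In the next bin 52 of 186 were called, 28%, with 9 higher and 43 lower, whereas the 6 brightest bins gave 4.86% to 10.8%. Within the dimmest bin CD1D had the 4th lowest mean log2 ratio and the 5th lowest Z ratio, and CD74 had the 2nd highest Z ratio and the 28th highest mean log2 ratio. The part of brightness in these calls was not tested.

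The genes most like CD1D over the 4 loess-normalized values were IL13 (distance 0.098), GSTM5 (0.13) and SRSF10 (0.13). The mean log2 ratio was −0.27 for IL13, −0.24 for GSTM5 and −0.26 for SRSF10, and their rhLRG1 foregrounds were 1.17 to 1.27 times the local background, beside 1.19 and 1.28 for CD1D. Here too the log2 ratio comes from the values that set the distance, so its likeness to CD1D follows from the choice.

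The HLA- probes, by contrast, stood well above background. By the Z ratio 0 of the 5 were called, beside 13.4% of all probes, and 5 probes are too few to tell these shares apart. HLA-DRA, the alpha chain of HLA-DR and a partner of CD74, read 556 and 359 over 43.0 and 43.1 in untreated replicate 2 and 467 and 288 over 71.3 and 71.3 with rhLRG1. In replicate 3 it read 583 and 325 untreated and 505 and 232 with rhLRG1. Its log2 ratio was 0.094 and 0.053 (mean 0.073, Z ratio 0.547, limma adjusted p = 0.481). The spots of this probe thus differed from each other more than the treatments did.

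HLA-DQA1, the alpha chain of HLA-DQ, had log2 ratios of −0.016 on replicate 2 and 0.19 on replicate 3, with a mean of 0.087 and a limma adjusted p of 0.507. The probe named HLA-DRB1 carries an accession that RefSeq assigns to HLA-DRB4, and beta chain genes are so alike that cross-hybridisation between them cannot be told apart. It was the brightest of the 5, with foregrounds of 6870 and 6207 in untreated replicate 2 and 6549 and 5583 with rhLRG1. In replicate 3 its spots read 4937 and 1632 untreated and 3586 and 1321 with rhLRG1. The log2 ratio of this HLA-DRB1 probe was −0.083 and −0.28, a mean of −0.18 with a Z ratio of −1.38, an unadjusted limma p of 0.0466 and an adjusted p of 0.208.

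HLA-B is a classical class I heavy chain, and HLA-E is a non-classical one that is recognised by natural killer cell receptors. HLA-B had log2 ratios of 0.039 and −0.040 (mean −0.00058, adjusted p = 0.997) and HLA-E had 0.033 and −0.048 (mean −0.0075, adjusted p = 0.947). Neither class I gene differed between the groups by more than the arrays differed from each other. By limma, 0 of the 5 HLA- probes passed an adjusted p of 0.05 and 1 passed unadjusted, beside 0 of 1856 (0%) and 433 of 1856 (23.3%) over all probes. Without the IFNG and RAI3 spots, limma called 404 of 1856 probes (21.8%) and still none of the 5. Without replicate 2, 2 of the 5 passed the Z ratio, HLA-DQA1 at 1.54 and HLA-DRB1 at −2.32, beside 225 of 1856 probes.

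The rest of the pathway was read from 5 lists of antigen presentation genes, of which 35 genes besides CD74 and CD1D were on the array. By the Z ratio 2 were called higher and 3 lower, 14.3% of the list beside 13.4% of all probes. The median log2 ratio of the list was −0.051 and that of all probes −0.0061. By limma 0 passed after adjustment and 10 unadjusted, 28.6% of the list beside 23.3% of all probes. Without the IFNG and RAI3 spots, 9 of the 35 passed the adjusted limma test, 25.7% beside 21.8% of all probes.

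Among the 10 other genes of the class II and invariant chain pathway, 0 were called higher and 2 lower. Both were cysteine cathepsins, proteases of the endosome and lysosome. CTSV, a cathepsin that degrades the invariant chain in thymic epithelium, had log2 ratios of −0.57 and −0.20 (Z ratio −2.64, limma adjusted p = 0.145). CTSF, which can take that role in mouse macrophages, had −0.52 and −0.11 (Z ratio −2.17, adjusted p = 0.177). Without replicate 2 the Z ratio of CTSV was −1.73, still called, and that of CTSF was −1.0, not called. Without the IFNG and RAI3 spots the adjusted p was 0.0101 for CTSV and 0.0131 for CTSF, with mean log2 ratios of −0.61 and −0.45. Under rhLRG1 the foreground was 1.41 and 1.30 times the background for CTSV and 1.66 and 1.38 times for CTSF, so these probes, like CD1D, were dim in that channel. The class II transactivator CIITA and its partner RFXAP, given here for their role and with their values known, had mean log2 ratios of −0.059 and 0.034.

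**Figure D4:**
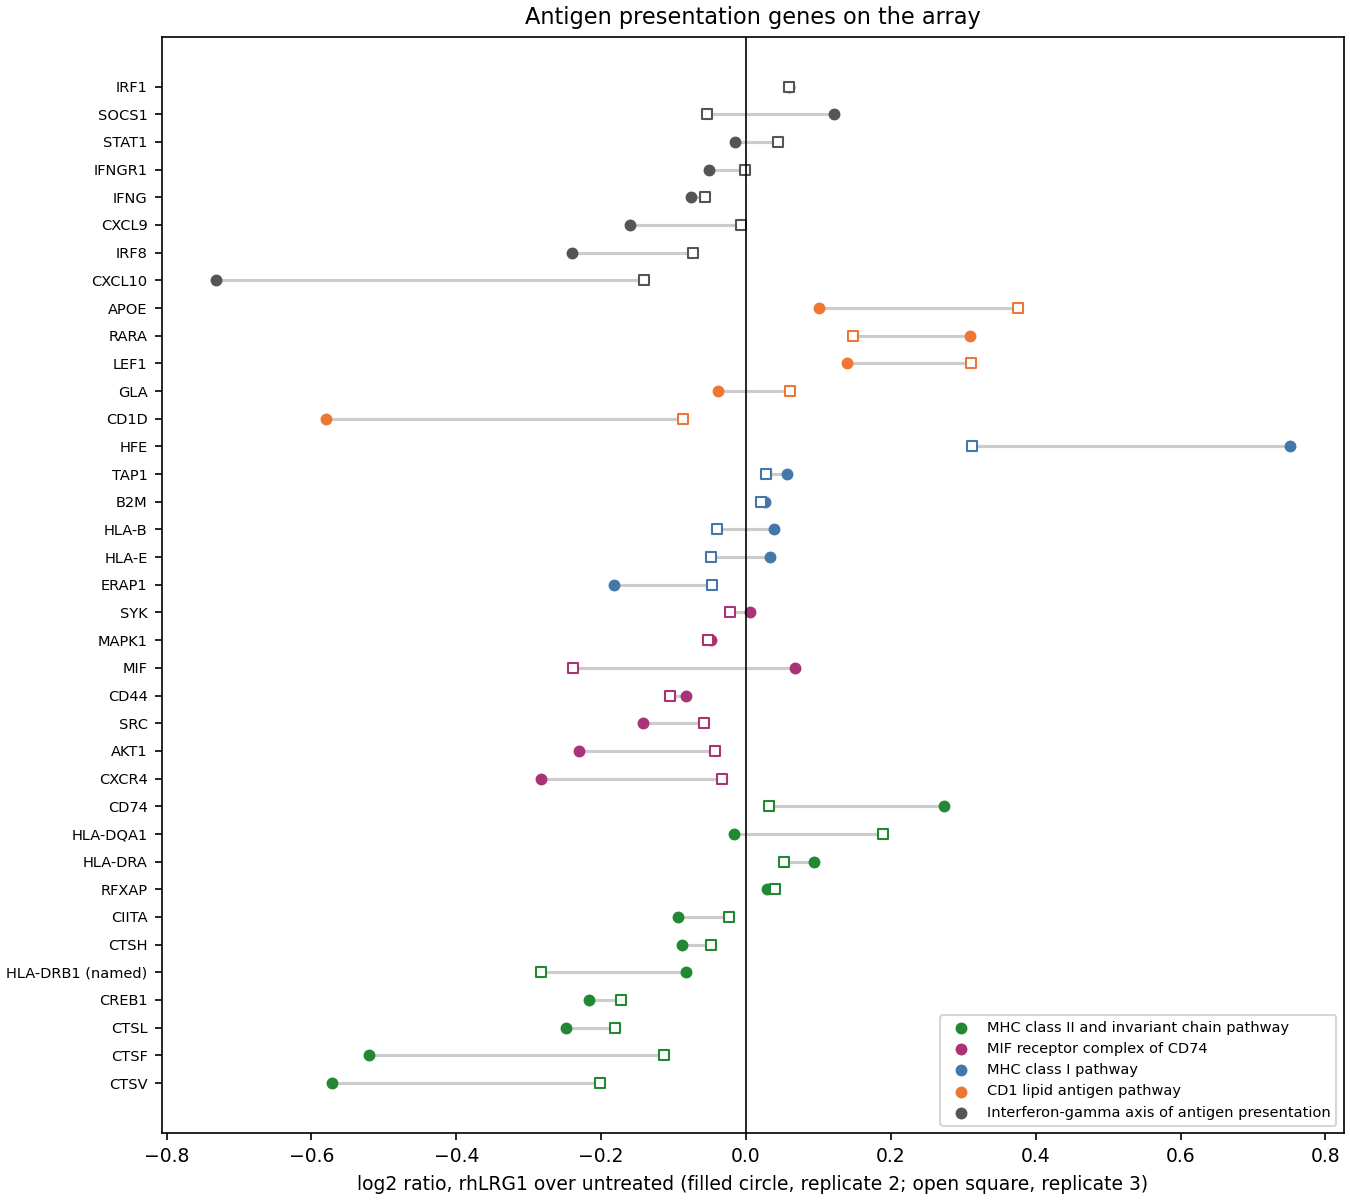
Log2 ratio of rhLRG1 over untreated on replicate 2 (filled circles) and replicate 3 (open squares) for CD74, CD1D and the 35 other genes of the 5 antigen presentation lists, with a line joining the arrays and genes that belong to several lists shown once. The longest lines belong to genes called by the Z ratio, such as CXCL10 (−0.73 and −0.14), CD1D (−0.58 and −0.087) and HFE (0.75 and 0.31), and HLA-B, HLA-E and B2M lie near 0.

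None of the 7 genes of the MIF receptor complex was called, and all 7 had mean log2 ratios below 0, between −0.16 and −0.0082, as did 51.9% of all probes. With median centring 5 of the 7 were below 0. CXCR4, a chemokine receptor that associates with CD74, had the largest in size (−0.28 and −0.033), followed by the kinase AKT1 (−0.23 and −0.042), with limma adjusted p of 0.295 and 0.304. The mean of CXCR4 without the IFNG and RAI3 spots was −0.24 with an adjusted p of 0.0366, past the threshold, and that of AKT1 was −0.17 with 0.0901. MIF itself, given for its role, had 0.067 on replicate 2 and −0.24 on replicate 3, and the co-receptor CD44 had −0.083 and −0.10.

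In the class I pathway 1 of 6 genes was called, HFE, a class I-like protein of iron uptake that presents no antigen. Its log2 ratios were 0.75 and 0.31, with a Z ratio of 2.56 and a limma adjusted p of 0.143, and without the IFNG and RAI3 spots the mean was 0.73 with an adjusted p of 0.0101. B2M, the light chain of HLA class I molecules and of CD1D, had 0.026 and 0.021 (Z ratio 0.269). In the CD1 lipid antigen list 1 of 5 other genes was called higher, LEF1, a transcription factor, with log2 ratios of 0.14 and 0.31 and a Z ratio of 1.54. Its Z ratio was 1.29 and not called without the IFNG and RAI3 spots, and 0.735 without replicate 3. All 5 genes of that list had mean ratios above 0, from 0.011 to 0.24, as did 48.1% of all probes, while CD1D had −0.33. With median centring 4 of the 5 were above 0, and with no normalization 1 was, beside 8.41% of all probes.

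On the interferon-gamma axis, which drives CIITA and CD74 in many cell types, 1 of 8 genes was called. CXCL10, a chemokine induced by interferon, had log2 ratios of −0.73 and −0.14, a Z ratio of −2.66 and a limma adjusted p of 0.168, and without replicate 2 its Z ratio was −1.08. Its rhLRG1 foreground was 1.25 and 1.23 times the background. Without the IFNG and RAI3 spots the mean was −0.63 with an adjusted p of 0.0120. The remaining genes of the axis had mean ratios between −0.16 and 0.059.

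Markers of other cells and of tumour cells were read in the same way. Of 9 markers of professional antigen-presenting cells none was called, the largest mean ratios being −0.11 for the B-cell gene MS4A1 and 0.097 for the macrophage receptor CSF1R. Of 5 costimulatory genes TNFSF4 was called lower (−0.37 and −0.085, Z ratio −1.58), and its rhLRG1 foreground was 1.39 and 1.33 times the background. Its Z ratio was −0.675 without replicate 2, −1.38 with loess-normalized channels and −1.34 with the net intensities, none of them called. Of 4 T and natural killer cell markers CD3G was called higher (0.20 and 0.050, Z ratio 2.38), with foregrounds of 1.18 and 1.19 times the background under rhLRG1. The Z ratio of CD3G was 1.37 without replicate 2, 0.881 with loess-normalized channels and 0.859 with the net intensities, again not called. Of 11 tumour cell markers AXL, a receptor kinase, was called higher (0.49 and 0.35, Z ratio 2.33) and the progesterone receptor gene PGR lower (−0.38 and −0.12, Z ratio −1.60). Triple-negative cancers are defined as lacking the progesterone receptor, and the rhLRG1 foreground of PGR was 1.72 and 1.47 times the background. The Z ratio of AXL was 1.69 to 2.88 under the alternatives run, called in all of them, and that of PGR was −0.931 without replicate 2 and −1.495 with no background correction, neither called. With the IFNG and RAI3 spots left out, TNFSF4, CD3G, AXL and PGR passed the adjusted limma test, with p of 0.0147, 0.0376, 0.0109 and 0.0135, and kept their Z calls. In the untreated samples the foreground ran from 4.01 to 260 times the background for the professional cell markers and from 2.48 to 314 times for the tumour cell markers, so signal over background did not separate the lists and does not check the labelled cell type. Of 6 housekeeping genes none was called. ACTB had −0.13 and 0.084, GAPDH −0.12 and −0.049, and TFRC 0.25 and 0.064. The adjusted limma p of TFRC was 0.0456 without the IFNG and RAI3 spots.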

How the data were processed

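RNA of untreated and rhLRG1-treated MDA-MB-231 cells was hybridised in pairs to 2 two-colour arrays. The authors deposited, per spot and channel, the scanned intensity, the local background intensity with its standard deviation, and a net intensity. The net intensity equals foreground minus background in the untreated channel and carries a further correction in the rhLRG1 channel. The deposited ratio columns hold the authors' own comparison and were not used. The submitters' processing notes name R 4.2.2, and the study's methods name a Z-score method in a spreadsheet, with calls beyond 1.5.

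Here the intensities were corrected with normexp (offset 50) and normalized by loess within each array, with the 54 control spots at weight 0 (limma 3.58.1, R 4.3.3). Spots of a probe were averaged, and log2 ratios were taken as rhLRG1 over untreated. Z ratios used the normexp-corrected log10 channels. Ratios were tested against 0 with limma's moderated test and Benjamini-Hochberg adjustment over 1856 probes at 0.05. The shared array pairs the samples, and deviations of same-numbered samples correlated at 0.946 across probes. The normexp fit of replicate 3 with the IFNG and RAI3 spots, which raised dim values in both channels, enters this correlation. It was not computed without them. The number of arrays, 2, limits the precision. Probes were named through RefSeq by accession (1701), symbol (60) or synonym (15), 5 kept the file's name and 75 had none. The procedure was also run on simulated data, in which every foreground lay above its background and both channels held the same base signal. That run does not cover spots below their background, a dye effect or a systematic difference between arrays.

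Named genes are CD74, CD1D, every HLA- probe, ACTB and GAPDH, in each of 10 lists the members beyond a Z ratio of 1.5 or otherwise the 2 with the largest mean ratio, and for CD74 and CD1D the 3 nearest genes. Members, lists and rules were chosen with earlier results of these data known. Alternatives covered the background correction, the normalization, each array left out, each spot alone, a filter on dim probes and a fit without pairing. Probe sequences were not used here.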

Additional observations from a re-analysis of the deposited data

How the results depend on the processing

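The direction of CD1D was kept under every alternative run, and that of CD74 was not. The mean log2 ratio of CD74, 0.15, became 1.18 with plain subtraction followed by loess and 0.45 with print-tip loess. It was −0.29 with the net intensities and −0.021 with no normalization. With no normalization the median of all probes was −0.31, and CD74 lay 0.29 above it. CD1D, at −0.33, became −0.99 with plain subtraction followed by loess, −1.14 with the net intensities and −0.86 with no normalization, and relative to that median it lay at −0.55. Leaving out an array gave means of 0.032 to 0.27 for CD74 and −0.58 to −0.087 for CD1D.

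The Z ratio of CD74, 3.24, was −1.02 with the net intensities and 1.04 with loess-normalized channels, and 1.54 to 3.84 with an array left out. The Z ratio of CD1D, −1.76, was −1.40 with no background correction and −2.31 to −0.515 with an array left out. HLA- probes called went from 0 to 2 with an array left out. List genes called were 8 without replicate 2 and 4 without replicate 3, beside 225 and 233 of 1856 probes. With plain subtraction 8 list genes were called, beside 190 of 1856 probes. Plain subtraction called 55 probes higher and 135 lower, 28.9% of the calls being higher, against 125 and 123, or 50.4%.

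Limma called 0 of 1856 probes, but 432 with no background correction, 378 with plain subtraction and loess, 603 with the net intensities, 503 with no normalization and 404 without the 2 spots below their background. The last setting was added after seeing the data. On replicate 3 those spots raised the normexp value of CD74 to 219 (untreated) and 206 (rhLRG1), against 53.2 and 53.0 without them. The cause of the other differences was not tested. The fit with no replicate block, which ignores the pairing by array, called 0 probes adjusted and 0 unadjusted, against 433 unadjusted in the paired fit, and left the mean ratios of CD74 (0.15) and CD1D (−0.33) as they were. A filter on dim probes removed 3 of 1856 probes and neither CD74 nor CD1D. Without a dye swap and with 2 arrays, a dye effect at low intensity cannot be told apart from an effect of rhLRG1 on CD74 or CD1D.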

Other observations

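CD74 was among 10 genes whose transcripts the study followed by PCR, and 9 of these were found on the array by name. The study states that it picked them for the highest differential expression on the array, so their Z ratios are no separate result. Its PCR showed increases with rhLRG1 but no statistically significant difference for these genes. In the untreated samples, ranked from the lowest of 1856 probes by foreground over local background, CD74 stood 3rd and 2nd (replicates 2 and 3), ITGA7 6th and 8th, HSD17B2 10th and 12th, MAP3K7 13th and 7th, VEGFA 17th and 19th and FGF8 24th and 24th. ITGA7 encodes an integrin subunit, HSD17B2 a steroid dehydrogenase, MAP3K7 a kinase of the TGF-beta and NF-kappa-B pathways, VEGFA an angiogenic growth factor and FGF8 a fibroblast growth factor. All 6 had Z ratios between 2.77 and 3.24, where 6.73% of all probes were called higher. The other 3 were brighter, HRAS at 174th and 281st with a Z ratio of 0.848, CLU at 506th and 546th with −2.83, and the transcription factor gene ETV7 at 1744th and 1774th with 2.07. As with CD74, no p-value is given for these genes, which were looked up with their values known.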
